A study of Homo sapiens with 6 samples.

Results

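Ribosome assembly factors are the proteins that fold, cut, modify and export the precursors of ribosomal RNA, and here 52 named factors of this kind were followed by gene symbol. All 52 were found among the 28307 genes of the count table, and all 52 had enough reads to be tested. By the ribosomal subunit they serve, 22 act on the small subunit and 20 on the large subunit, 7 are proteins of small nucleolar ribonucleoproteins (snoRNPs), and 3 (DDX21, NOLC1 and TCOF1) serve the nucleolus more generally.

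The nucleolus makes a single long precursor that holds 18S, 5.8S and 28S rRNA. Box C/D snoRNPs, built on fibrillarin, NOP56 and NOP58, methylate it, and box H/ACA snoRNPs, built on dyskerin, convert uridines to pseudouridine. The small-subunit processome, a large particle that includes the U3 snoRNP and the UTP complexes, forms on its 5' part and leads to the 40S subunit, while a separate series of factors folds the 28S part into the 60S subunit. Fast-growing leukaemia cells depend on a high output of this pathway, and nucleophosmin (NPM1), the protein targeted here, is itself a nucleolar chaperone.

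The cells were OCI-AML3, an established human acute myeloid leukaemia line whose mutant NPM1 protein (NPM1c) is held in the cytoplasm; the labels give its genotype as WT in every sample. In the siNPM1c group the cells received an siRNA against NPM1c, and in the siControl group a control siRNA, each at 10 nM by lipid transfection, and total RNA was taken after 3 days. Each group had 3 libraries, and nothing in the labels says that they came from separate cultures, so p-values measure only how far these libraries vary, and that variation may be technical. NPM1 had 293, 500 and 350 counts in the siNPM1c libraries and 922, 1366 and 922 in the siControl libraries, which is 23.2 ± 1.02 against 50.1 ± 0.984 CPM, the count scaled by library size and TMM factor (SD, n = 3 each); reads of both alleles are counted together.

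Libraries held 15338450 to 25190122 counts in the siNPM1c group and 15075235 to 23828944 in the siControl group. Ribosomal RNA genes took 70.2% ± 0.81 of the counts in siNPM1c libraries and 63.8% ± 0.751 in siControl libraries (SD, n = 3 each), and protein-coding genes took 21.8% ± 0.495 and 28.5% ± 0.455. The 52 factors had 15 to 2969 counts per library, with a median of 157.5. Of 8 myeloid leukaemia markers (CD33, MPO, SPI1, CEBPA, LYZ, HOXA9, MEIS1 and PTPRC), all 8 were tested, 3 lower and 4 higher, with a summed level of 834 to 841 CPM in siNPM1c and 449.8 to 456 CPM in siControl libraries. Markers of other cells had a summed level of 49.4 to 57.9 CPM in siNPM1c and 44.1 to 44.9 CPM in siControl libraries, most of it PECAM1, which myeloid cells also express (52.5 ± 3.81 and 42.9 ± 0.619 CPM; SD, n = 3 each), and HBB was at 0 in every library. Monocyte and granulocyte markers were higher in siNPM1c cells for 11 of 13 genes (summed level 1532 to 1560 CPM in siNPM1c against 884 to 901 CPM in siControl). LYZ is in this list and in that of the myeloid leukaemia markers, so both sums contain it. G2/M genes were lower for 13 of 16 (236 to 238 against 306 to 315 CPM). Of all 12938 genes tested 21.4% were lower and 21.3% higher at an adjusted p under 0.05. With libraries scaled by their totals only, 9253 of them were lower and 507 higher. Under that scaling 5 of the 13 monocyte and granulocyte markers were higher and 3 lower. Of the 8 myeloid leukaemia markers 3 were higher and 5 lower, and all 16 G2/M genes were lower. The part of these shifts in the results below was not tested.

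Because the factors are compared as genes that may move together, the 250 bases before the start of their transcripts were searched for CACGTG, the E-box bound by MYC and MAX, which reads the same on both strands. Promoter sequences were found in RefSeq (GRCh38.p14) for 43 of the 52 factors. The E-box was present in 8 of them, 18.6%, against 9.08% of 9594 protein-coding genes tested. The 8 were UTP4, UTP14A, UTP18 and UTP20 of the small subunit, EBNA1BP2, MDN1 and SDAD1 of the large subunit, and NOP10. Of the 22 factors that were lower in siNPM1c cells and had a sequence, 5 held it (22.7%), and of the other 21, 3 did (14.3%), so the motif occurred in factors that fell, rose or did not pass the test. Shown here are UTP20 and NOP10, which fell and hold an E-box close to the start, UTP18, which holds one and did not fall, and WDR3, which had the largest decrease of the small-subunit factors and holds none. Capitals mark the E-box; each sequence runs 5' to 3' on the strand of the gene and ends at the base before the transcript start.

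UTP20 (chr12:101279855-101280104, plus strand, E-box from base 10 before the start): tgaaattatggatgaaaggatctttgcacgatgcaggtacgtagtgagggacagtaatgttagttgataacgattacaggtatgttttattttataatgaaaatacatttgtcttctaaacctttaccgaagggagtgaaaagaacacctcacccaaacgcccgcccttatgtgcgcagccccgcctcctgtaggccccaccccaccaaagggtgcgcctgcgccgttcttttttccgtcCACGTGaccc
NOP10 (chr15:34343137-34343386, minus strand, E-boxes from bases 170 and 11 before the start): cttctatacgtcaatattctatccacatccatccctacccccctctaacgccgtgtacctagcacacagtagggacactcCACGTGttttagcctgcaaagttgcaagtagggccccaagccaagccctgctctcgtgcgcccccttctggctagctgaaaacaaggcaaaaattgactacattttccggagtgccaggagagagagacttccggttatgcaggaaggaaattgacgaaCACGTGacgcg
UTP18 (chr17:51260296-51260545, plus strand, E-box from base 89 before the start): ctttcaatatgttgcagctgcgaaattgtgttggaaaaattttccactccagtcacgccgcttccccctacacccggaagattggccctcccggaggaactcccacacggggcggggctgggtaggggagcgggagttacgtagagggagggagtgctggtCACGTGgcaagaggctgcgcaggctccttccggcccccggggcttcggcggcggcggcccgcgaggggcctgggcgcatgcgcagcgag
WDR3 (chr1:117929489-117929738, plus strand, no E-box): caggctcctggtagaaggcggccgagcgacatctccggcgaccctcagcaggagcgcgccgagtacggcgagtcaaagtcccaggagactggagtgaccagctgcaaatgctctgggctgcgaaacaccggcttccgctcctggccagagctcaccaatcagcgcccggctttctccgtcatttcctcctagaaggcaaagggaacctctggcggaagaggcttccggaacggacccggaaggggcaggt

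The GC box GGGCGG, searched on both strands, was present in 17 of 20 small-subunit promoters (85%), 8 of 16 large-subunit promoters (50%) and 67.4% of the protein-coding genes tested. The CCAAT box was present in 9 of 20 and 5 of 16, and in 35.2% of the protein-coding genes tested. CCAAT was searched on both strands too, and no motif of the 3 is contained in another. These matches describe the letters of the window only.

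The comparison asked which assembly factors differed between siNPM1c and siControl cells, and whether small-subunit and large-subunit factors did so alike. Of the 52 factors, 24 fell and 3 rose in siNPM1c cells at an adjusted p under 0.05, where 21.4% of the 12938 genes tested were lower and 21.3% were higher. The median log2 fold change was -0.17 over the 52 factors and -0.01 over all genes tested. Among small-subunit factors 13 of 22 fell and 1 rose, with a median of -0.33. Among large-subunit factors 6 of 20 fell and 2 rose, with a median of -0.06, and the snoRNP proteins had 4 of 7 lower and 0 higher, with a median of -0.18. These directions are relative to TMM factors, under which most genes are assumed not to differ. When libraries were scaled by their totals only (library sizes alone), the median of all genes tested was -0.48, 50 factors were lower, 0 were higher, and the 3 that rose were lower. In bulk RNA, fewer cells that express a factor and less of its RNA per cell cannot be told apart.

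**Figure D1:**
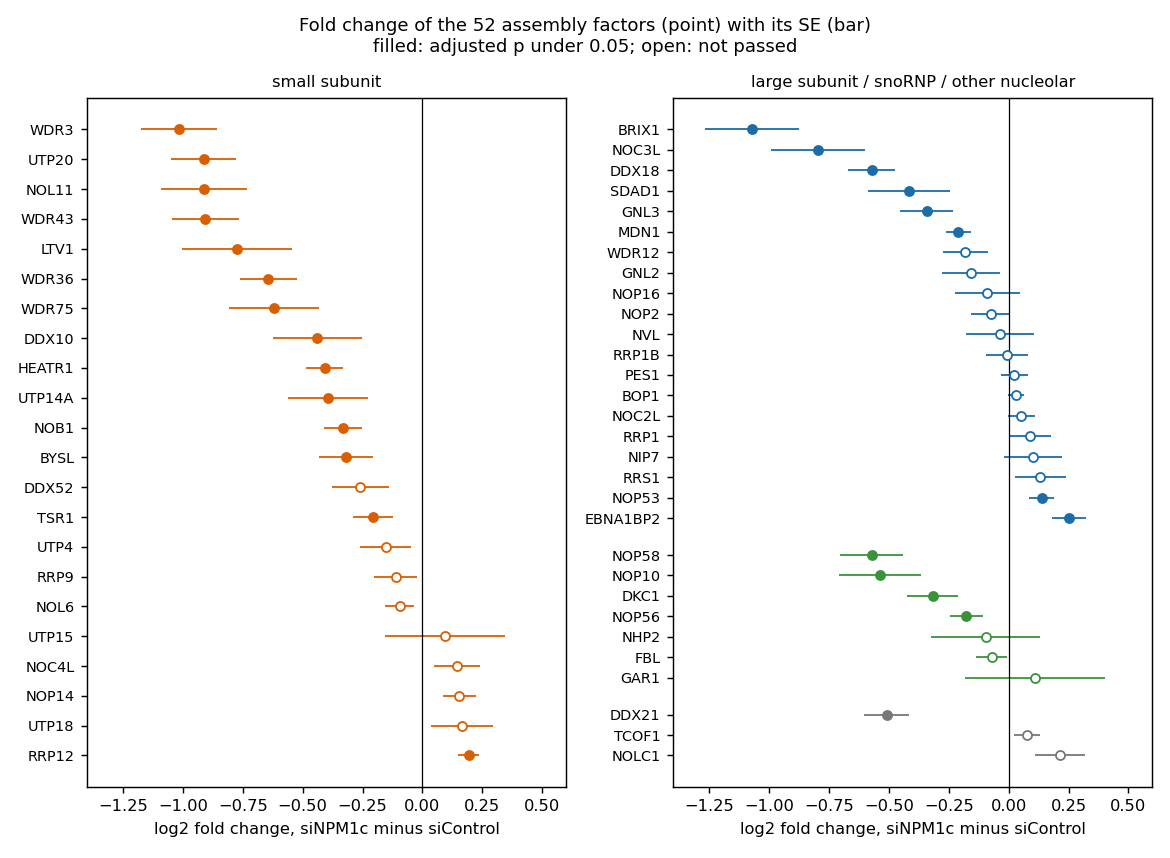
Log2 fold change (x axis, siNPM1c minus siControl) of each of the 52 factors, listed down the page by class, with its standard error as a bar; filled points passed an adjusted p under 0.05 and open points did not. The 13 small-subunit factors that fell spread from -1.02 (WDR3) to -0.21 (TSR1), while 12 of 20 large-subunit factors did not pass; under library sizes alone the 3 filled points right of 0 lie left of it.

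Among the 22 small-subunit factors the decreases were largest in WDR3, UTP20, NOL11 and WDR43, while UTP4, UTP15 and UTP18 did not pass. UTP20, a very long scaffold protein of the processome, had 3.16, 4.64 and 4.11 CPM in siNPM1c and 9.05, 7.67 and 6.29 CPM in siControl libraries. All siNPM1c libraries lay below all siControl libraries, although the siControl values were themselves spread. UTP20 was 1.88-fold lower (-0.91 ± 0.13 log2, SE). Its adjusted p was 9.23e-10 in the quasi-likelihood test of edgeR, adjusted over all genes tested after Benjamini and Hochberg, as for every adjusted p below.

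The UTP-A complex binds the first stretch of the precursor and links processing to its transcription. Of its 6 members listed here 4 fell, where 21.4% of all genes tested were lower. WDR43 (gene at chr2:28894667-28948219, GRCh38.p14) had 3.61, 3.73 and 3.24 CPM in siNPM1c and 6.72, 6.55 and 6.72 CPM in siControl libraries. The groups were far apart and each was tight, and WDR43 was 1.87-fold lower (-0.91 ± 0.14 log2, adjusted p 6.18e-09 by edgeR). NOL11 fell by 0.91 (SE 0.18) on the log2 scale and WDR75 by 0.62 (SE 0.19), a call that WDR75 lost with a correction for GC content (adjusted p 0.0834 by edgeR). HEATR1, a large repeat protein that also supports RNA polymerase I, fell by 0.41 (SE 0.08) to 14.7 ± 0.256 CPM in siNPM1c cells, against 19.4 ± 0.902 CPM in siControl cells (SD, n = 3 each). UTP4 and UTP15 did not pass the test, with log2 fold changes of -0.15 ± 0.11 and 0.09 ± 0.25 (SE); UTP15 had only 18 counts in its shallowest library.

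The UTP-B complex contacts both the precursor and the U3 snoRNP. Of its members among the named factors, WDR3 and WDR36 fell and UTP18 did not pass. In the list of other small-subunit factors, UTP6 of this complex was called higher (0.23 ± 0.09 log2, SE, adjusted p 0.0341 by edgeR). No factor of that list was higher with library sizes alone. TBL3 of the same complex did not pass (-0.04 ± 0.06), and PWP2 had 0 counts in every library and was not tested. WDR3 had 3.01, 2.68 and 2.63 CPM in siNPM1c and 5.55, 5.14 and 6.18 CPM in siControl libraries. The groups did not overlap, and WDR3 was 2.02-fold lower (-1.02 ± 0.16 log2, adjusted p 6.5e-09 by edgeR). WDR36 had 5.03, 5.36 and 6.41 CPM in siNPM1c and 9.11, 9.08 and 7.91 CPM in siControl libraries, again without overlap, and was 1.56-fold lower (-0.64 ± 0.12 log2, adjusted p 9.42e-07 by edgeR). UTP18 had a log2 fold change of 0.16 ± 0.13 (SE), and of 0.40 with an adjusted p of 0.0081 by edgeR after the GC correction. Exons of WDR3 overlap those of SPAG17 on the opposite strand over 1446 bases, and exons of HEATR1 those of LGALS8 over 1986 bases. The labels leave the strand setting of the counting unstated, and without strand the reads of such partners cannot be told apart.

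Of the other processome proteins, the helicase DDX10 and UTP14A, whose yeast homologue activates the helicase that frees U3, were called lower, with log2 fold changes of -0.44 ± 0.19 and -0.39 ± 0.17 (SE) that stood near the threshold. DDX10 lost the call without any 1 of 5 libraries, with adjusted p by edgeR of 0.341 and 0.0573 without siNPM1c replicate 2 and 3, and 0.0573, 0.0794 and 0.103 without siControl replicate 1, 2 and 3. UTP14A lost it without siNPM1c replicate 2 or 3 (adjusted p 0.0554 and 0.251 by edgeR) and without siControl replicate 1 or 3 (0.122 and 0.0754). After the GC correction DDX10 was at -0.30 and UTP14A at -0.36, and both lost the call (adjusted p 0.195 and 0.077 by edgeR). DESeq2 did not call them either, at -0.43 and -0.41 (adjusted p 0.155 and 0.133), and across the libraries left out DDX10 ranged from -0.49 to -0.27 and UTP14A from -0.47 to -0.27 where the call was lost. The helicase DDX52 did not pass (-0.26 ± 0.12), but did without siNPM1c replicate 3 (adjusted p 0.0436 by edgeR) or siControl replicate 3 (0.0494). RRP9, the U3-specific protein, and NOL6, of the UTP-C complex, had log2 fold changes of -0.11 ± 0.09 and -0.10 ± 0.06 and did not pass, although NOL6 was called lower after the GC correction (-0.16, adjusted p 0.0209 by edgeR). NOP14 and NOC4L, whose yeast homologues bind each other, were at 0.15 ± 0.07 and 0.14 ± 0.10 and did not pass, although NOP14 did without siNPM1c replicate 1 (adjusted p 0.0284 by edgeR) or siControl replicate 1 (0.0209), and NOC4L without siNPM1c replicate 3 (0.0312).

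The late 40S factors act as the particle leaves the nucleolus and enters the cytoplasm, and 4 of the 5 listed here fell while 1 rose. Over all genes tested 21.4% were lower and 21.3% higher, and of 32 small-subunit factors tested outside the 52 named, 4 fell and 7 rose. NOB1, the endonuclease that makes the mature 3' end of 18S rRNA, fell to 13.6 ± 0.205 CPM in siNPM1c cells, against 17.2 ± 0.929 CPM in siControl cells (SD, n = 3 each; -0.33 ± 0.08 log2, SE). LTV1, a factor of the head of the 40S particle, fell by 0.77 (SE 0.23), with as few as 15 counts in a library. BYSL, which stays with the particle into late maturation, fell by 0.32 (SE 0.11), a call lost without siNPM1c replicate 3 (adjusted p 0.144 by edgeR) or siControl replicate 3 (0.179) and with DESeq2 (0.0657). TSR1, a GTPase-like cytoplasmic factor, fell by 0.21 (SE 0.08), a call lost without siNPM1c replicate 2 or 3 (adjusted p 0.252 and 0.0946 by edgeR) or siControl replicate 2 (0.394), and with DESeq2 (0.161). The groups of TSR1 overlapped, and its exons overlap those of SRR on the opposite strand over 720 bases. RRP12, in yeast an export factor of the pre-40S particle, went the other way. It had 52.1, 57.0 and 53.2 CPM in siNPM1c and 47.4, 47.8 and 47.4 CPM in siControl libraries, without overlap, and rose 1.14-fold (0.19 ± 0.04 log2, adjusted p 0.000112 by edgeR), with a log2 fold change of -0.28 under library sizes alone.

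**Figure D2:**
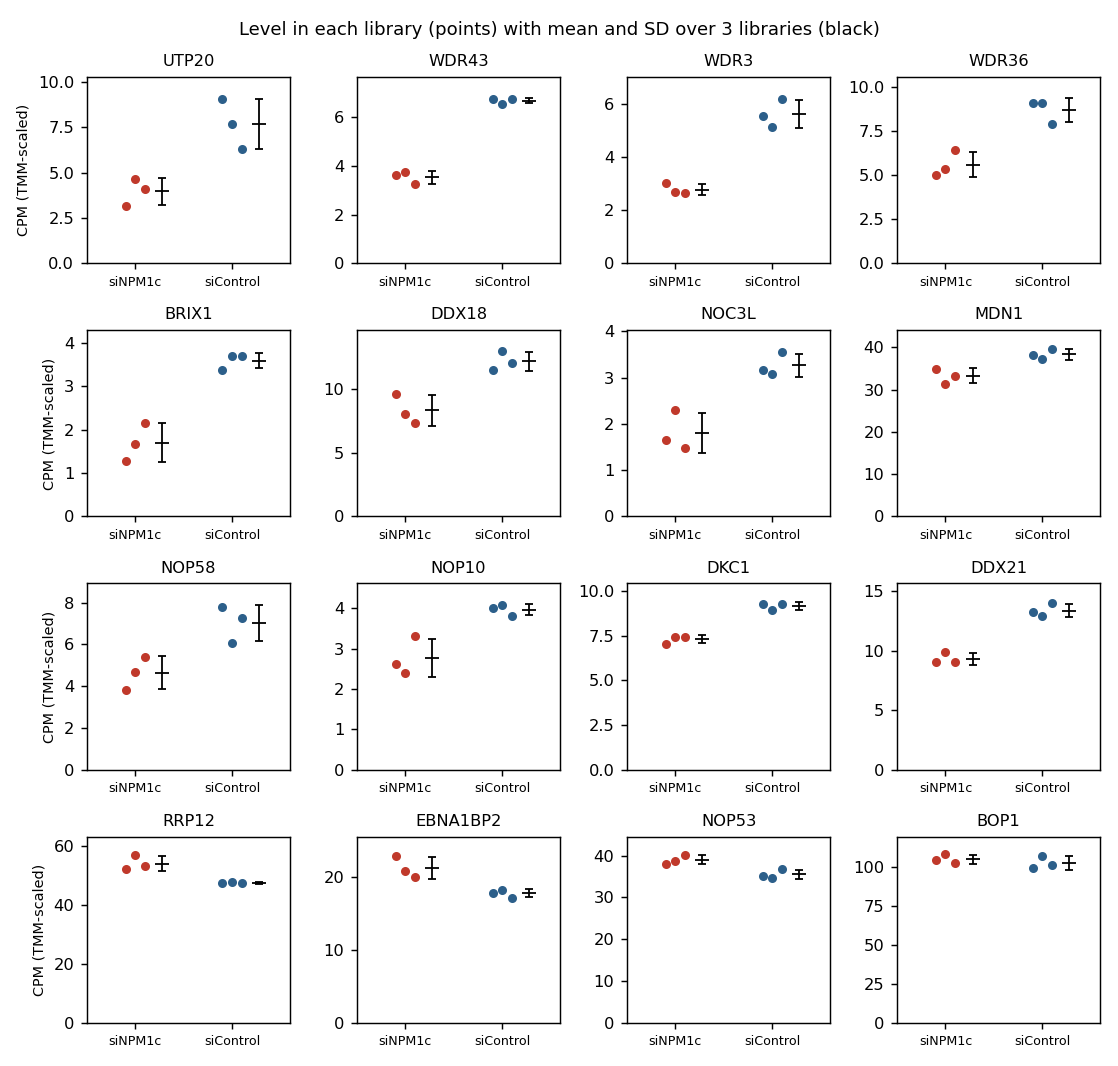
Level (y axis, TMM-scaled CPM, each panel from 0 on its own scale) of 16 factors in the 3 siNPM1c libraries (left, red) and 3 siControl libraries (right, blue), with mean and SD in black. The first 12 panels show factors whose siNPM1c libraries lie below all siControl libraries; RRP12, EBNA1BP2 and NOP53 lie above them (each below with library sizes alone), and BOP1 overlaps.

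Large-subunit factors that fell stood beside many that did not. BRIX1, a Brix-domain factor of early 60S particles, had 1.28, 1.67 and 2.16 CPM in siNPM1c and 3.39, 3.69 and 3.71 CPM in siControl libraries. The groups did not overlap, and BRIX1 was 2.10-fold lower, the largest decrease among the 52 (-1.07 ± 0.20 log2, adjusted p 1.005e-06 by edgeR), on counts of 17 to 102 per library; the gene lies at chr5:34915711-34925996 (GRCh38.p14). Exons of BRIX1 overlap those of RAD1 on the opposite strand over 482 bases. NOC3L, a HEAT-repeat factor that in yeast pairs with the homologue of NOC2L, had 1.65, 2.30 and 1.48 CPM in siNPM1c and 3.17, 3.08 and 3.55 CPM in siControl libraries and was 1.74-fold lower (-0.80 ± 0.20 log2, adjusted p 0.000356 by edgeR).

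DDX18, a helicase of early 60S particles, had 9.62, 7.99 and 7.29 CPM in siNPM1c and 11.4, 13.0 and 12.0 CPM in siControl libraries. The groups did not overlap, and DDX18 was 1.49-fold lower (-0.57 ± 0.10 log2, adjusted p 1.74e-07 by edgeR); GENCODE lists 5 pseudogenes named after it, whose reads may be shared. MDN1, the giant AAA ATPase that strips assembly factors from the 60S particle, had 35.0, 31.4 and 33.3 CPM in siNPM1c and 38.1, 37.3 and 39.6 CPM in siControl libraries. Its decrease was small but clear of the spread, 1.16-fold (-0.21 ± 0.05 log2, adjusted p 0.000449 by edgeR). GNL3, nucleostemin, fell by 0.34 (SE 0.11), a call lost without siNPM1c replicate 1 or 2 (adjusted p 0.074 and 0.05004 by edgeR) or siControl replicate 1 (0.054). SDAD1, whose yeast homologue acts in export of the 60S particle, fell by 0.42 (SE 0.17), a call lost without siNPM1c replicate 2 or 3 (adjusted p 0.432 and 0.101 by edgeR) or siControl replicate 1 or 2 (0.0895 and 0.294). Calls of GNL3 and SDAD1 were also lost under the GC correction (adjusted p 0.124 and 0.299 by edgeR) and with DESeq2 (adjusted p 0.0508 and 0.203), and the groups overlapped for both genes.

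The factors of the PeBoW complex, PES1, BOP1 and WDR12, which is needed for processing of the 28S side of the precursor, did not pass, with log2 fold changes of 0.02 ± 0.06, 0.03 ± 0.03 and -0.18 ± 0.09 (SE). BOP1 had the highest level of all 52, at 104.4, 108.2 and 102.4 CPM in siNPM1c and 99.2, 107.4 and 101.3 CPM in siControl libraries. The groups overlapped, and the sign depended on the processing, with -0.09 (adjusted p 0.0158 by edgeR) after the GC correction and -0.44 under library sizes alone. The methyltransferase NOP2, the 60S factors NOP16, NIP7, RRS1, NOC2L and GNL2, the related RRP1 and RRP1B, and the ATPase NVL also did not pass, between -0.16 for GNL2 and 0.13 for RRS1.

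EBNA1BP2 and NOP53 rose. EBNA1BP2, a scaffold of early 60S particles, had 23.0, 20.9 and 20.1 CPM in siNPM1c and 17.9, 18.3 and 17.2 CPM in siControl libraries, without overlap, and was 1.19-fold higher (0.25 ± 0.07 log2, adjusted p 0.00185 by edgeR), with -0.22 under library sizes alone. NOP53, which in yeast recruits the RNA exosome to the 60S precursor, had 38.1, 38.7 and 40.2 CPM in siNPM1c and 35.1, 34.7 and 36.7 CPM in siControl libraries. Its increase of 1.1-fold (0.14 ± 0.05 log2, adjusted p 0.0219 by edgeR) was lost without siNPM1c replicate 3 (0.0885), without siControl replicate 2 (0.0996), under the GC correction (0.455) and with DESeq2 (0.0904), and was -0.33 under library sizes alone.

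Both snoRNP families held factors that fell. In the box C/D family NOP58 had 3.83, 4.69 and 5.40 CPM in siNPM1c and 7.77, 6.08 and 7.26 CPM in siControl libraries, without overlap, and was 1.49-fold lower (-0.57 ± 0.13 log2, adjusted p 0.000112 by edgeR). NOP56 fell by 0.18 (SE 0.07), but its groups overlapped, and the call was lost without siNPM1c replicate 2 or 3 (adjusted p 0.0771 and 0.175 by edgeR) or siControl replicate 2 (0.285), and with DESeq2 (0.118). FBL, fibrillarin, the methyltransferase itself, had 21.9, 24.2 and 21.9 CPM in siNPM1c and 24.9, 22.9 and 24.5 CPM in siControl libraries. The groups overlapped, and FBL did not pass (-0.07 ± 0.06).

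In the box H/ACA family DKC1, the pseudouridine synthase dyskerin, had 7.06, 7.46 and 7.42 CPM in siNPM1c and 9.27, 8.94 and 9.30 CPM in siControl libraries. The groups were separate, and DKC1 was lower (-0.32 ± 0.11 log2, adjusted p 0.0105 by edgeR). NOP10, the small protein that holds dyskerin to its guide RNA, had 2.63, 2.39 and 3.31 CPM in siNPM1c and 3.998, 4.09 and 3.82 CPM in siControl libraries, and was 1.45-fold lower (-0.54 ± 0.17 log2, adjusted p 0.00599 by edgeR), a call lost without siNPM1c replicate 2 (0.0934). NHP2 and GAR1, the remaining core proteins, were near 2 and 1 CPM and did not pass, with log2 fold changes of -0.10 ± 0.23 and 0.11 ± 0.29 (SE), and their errors are nearly as large as the change of DKC1.

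Of the general nucleolar proteins, DDX21 (gene at chr10:68956170-68985068, GRCh38.p14), a helicase that acts in rRNA transcription and releases snoRNAs from the precursor, had 9.02, 9.86 and 9.04 CPM in siNPM1c and 13.3, 12.9 and 14.0 CPM in siControl libraries. The groups did not overlap, and DDX21 was 1.42-fold lower (-0.51 ± 0.09 log2, adjusted p 6.92e-07 by edgeR). TCOF1, the gene of treacle, which recruits RNA polymerase I, had 36.1, 35.0 and 34.8 CPM in siNPM1c and 32.7, 33.2 and 34.4 CPM in siControl libraries. Its libraries did not overlap, as for 49.2% of all genes tested, but it did not pass (0.08 ± 0.05), and neither did the treacle-related NOLC1 (0.22 ± 0.10). After the GC correction NOLC1 was called higher (0.26 log2, adjusted p 0.0379 by edgeR), and with library sizes alone it was lower (-0.25).

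The small-subunit class was set against the large-subunit class within each library. The 22 small-subunit factors summed to 224 ± 4.67 CPM in siNPM1c and 249.2 ± 4.58 CPM in siControl libraries, and the 20 large-subunit factors to 367.2 ± 3.14 and 372.2 ± 4.84 CPM (SD, n = 3 each). Small over large was 0.609, 0.627 and 0.594 in siNPM1c and 0.691, 0.661 and 0.657 in siControl libraries. The groups did not overlap, and since it is a ratio within a library, the scaling of libraries does not enter it. The ratio covers only the 22 and 20 named factors, and the sums of the other factors of both classes, given below, moved in the opposite sense. BOP1 and RRP12 make up much of these sums; without them, a choice made after seeing the data, the ratio was 0.653, 0.67 and 0.623 in siNPM1c and 0.77, 0.746 and 0.728 in siControl libraries. Gene by gene, the median log2 ratio to the siControl mean was -0.30, -0.28 and -0.33 for small-subunit factors in siNPM1c libraries 1, 2 and 3, and 0.00, -0.07 and -0.01 for large-subunit factors. No test was made of these class values, because the members were chosen with results of these data known.

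**Figure D3:**
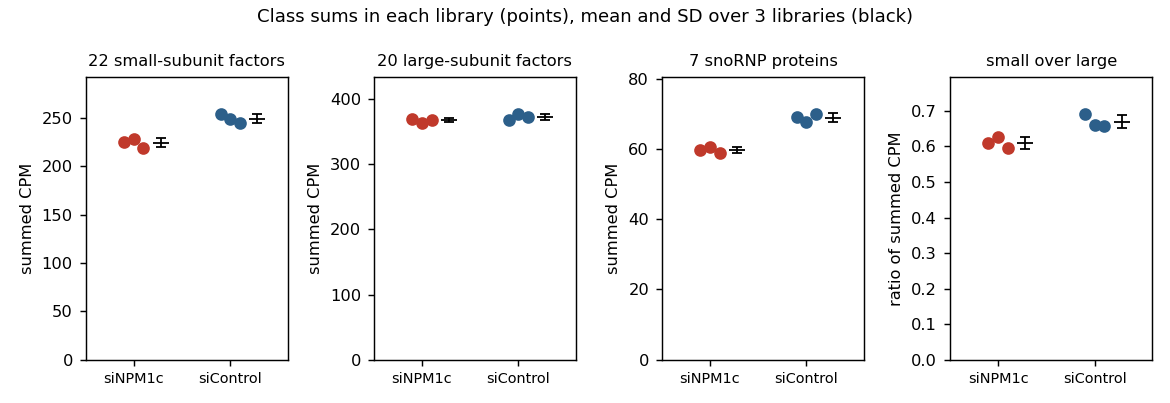
Summed CPM (y axis, from 0) of the small-subunit, large-subunit and snoRNP classes and the small-over-large ratio in the 3 siNPM1c libraries (left, red) and 3 siControl libraries (right, blue), with mean and SD in black. The small-subunit sum, the snoRNP sum (59.6 ± 0.887 in siNPM1c and 68.9 ± 1.22 in siControl libraries) and the ratio are lower in every siNPM1c library, while the large-subunit sums overlap.

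The factors that fell were mostly of low GC content and low level. GC content of the transcripts had a median of 45.4% over small-subunit and 48.3% over large-subunit factors, and 50.9% over all genes tested. With all genes tested split into 5 equal groups by GC content, the group of lowest GC content had a median of -0.22 on the log2 scale and 35.5% of its genes were lower, and the group of highest had 0.09 and 12.2%. In the lowest group 13 of 17 factors were lower, with a median of -0.57, and in the highest 0 of 4. The part of GC content in the decreases was examined only through the correction that follows. Across the 52 factors log2 fold change had a Pearson r of 0.595 with GC content and of 0.475 with log2 mean CPM (Spearman rho 0.58 and 0.475), as a description over genes that share the same 6 libraries.

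After the GC correction 21 of the 52 were lower and 4 higher, where 2480 of the 12938 genes tested were lower and 2674 higher. Of the 22 small-subunit factors 11 were lower and 2 higher, and of the 20 large-subunit factors 5 and 1. The medians were then -0.27 for small-subunit and -0.04 for large-subunit factors, so the difference between them was -0.23, against -0.27 without the correction. UTP20, WDR3, WDR36, WDR43, NOL11, HEATR1, NOB1, LTV1, BRIX1, NOC3L, DDX18, MDN1, NOP58, DKC1 and DDX21, 15 in all, were called lower in each of the 16 alternatives in which they were tested.

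**Figure D4:**
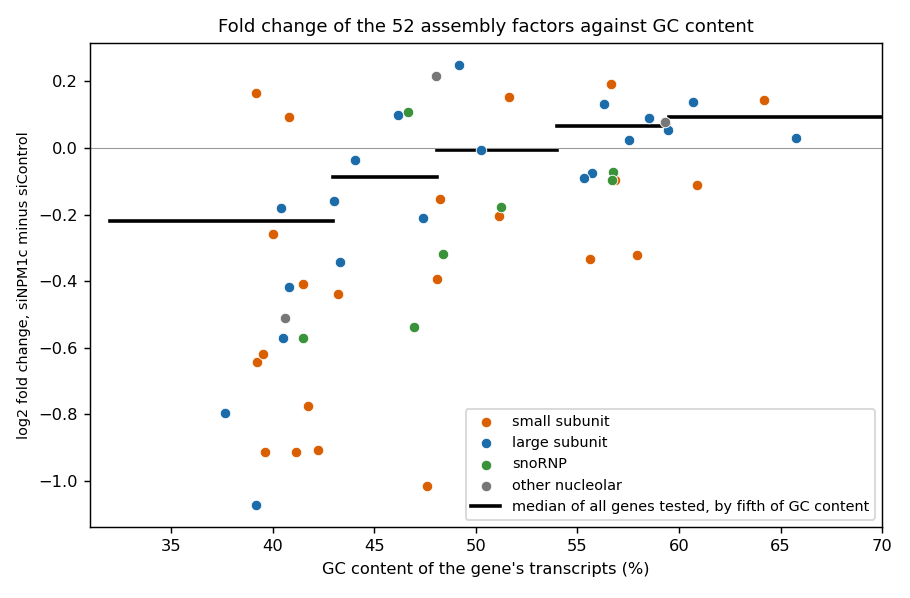
Log2 fold change (y axis, siNPM1c minus siControl) of the 52 factors against the GC content of their transcripts (x axis, percent), coloured by class; black lines are the medians of all genes tested in 5 equal groups by GC content. Points in the lowest group lie mostly below the black line at -0.22, down to -1.07 for BRIX1, and those in the highest group lie near the line at 0.09.

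Levels per length placed BOP1 first, at 45.6 CPM per kilobase of longest coding transcript in siNPM1c and 44.6 in siControl cells, then NOP53 (25.5 and 23.2) and FBL (19.5 and 20.8). The lowest in siNPM1c cells were WDR3 (0.278, and 0.564 in siControl cells) and UTP15 (0.326 and 0.317); in siControl cells they were UTP15 and DDX10 (0.363 in siNPM1c and 0.481 in siControl cells). EBNA1BP2 (14.2 and 11.8) and RRP12 (12.1 and 10.6) followed FBL in siNPM1c cells, where their rise enters the level. In siControl cells PES1 (11.3) and NOC2L (11.2) stood between EBNA1BP2 and RRP12.

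Other assembly factors, taken from lists by function, had values unlike those of the named small-subunit factors; the difference between lists was not tested. Of 33 other small-subunit factors 32 were tested, and 4 fell and 7 rose, with a median log2 fold change of -0.05. By smallest p, those that fell were led by the acetyltransferase NAT10 (-0.26 ± 0.06), the methyltransferase EMG1 (-0.28 ± 0.10) and DCAF13 (-0.43 ± 0.15), and those that rose by RRP7A (0.29 ± 0.04), TSR3 (0.49 ± 0.10), which modifies 18S rRNA, and the helicase DHX37 (0.22 ± 0.06; all ± SE). Of 36 other large-subunit factors 10 fell and 4 rose, with a median of -0.13. By smallest p, WDR74 fell by 0.81 (SE 0.06), CEBPZ by 0.93 (SE 0.14) and NOL9, a kinase that acts on the 28S side of the precursor, by 0.41 (SE 0.08), while PELP1 (0.26 ± 0.05), PPAN (0.54 ± 0.12) and RSL1D1 (0.23 ± 0.07) rose. The other small-subunit factors summed to 347.4 to 368 CPM in siNPM1c and 344.1 to 346.7 CPM in siControl libraries. The other large-subunit factors summed to 468.9 to 485 and 499.3 to 511.9 CPM. In these lists small-subunit factors were thus not lower relative to large-subunit factors, unlike in the named factors. With library sizes alone no other small-subunit or large-subunit factor was higher, and 27 of 32 and 32 of 36 were lower. Of the 12938 genes tested 9253 were lower and 507 higher under that scaling.

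Of 9 snoRNP assembly factors 8 were tested, and 2 fell, the ATPase gene RUVBL1 (-0.29 ± 0.09) and ZNHIT3 (-0.50 ± 0.21), and 0 rose, with a median of -0.17. Of 14 genes of the RNA exosome, which trims the precursor, and its cofactors, 4 fell and 2 rose, also with a median of -0.17. Its nuclease EXOSC10 fell by 0.35 (SE 0.09), EXOSC8 by 0.72 (SE 0.21) and the helicase gene MTREX by 0.37 (SE 0.11), while EXOSC6 (0.15 ± 0.04) and EXOSC7 (0.27 ± 0.09) rose, both only relative to TMM scaling, since 0 of the 14 were higher with library sizes alone. After the GC correction 2 of the 14 were lower and 2 higher, and 1 of the 8 snoRNP assembly factors was lower. Over the 4 lists 22.2% of 90 tested genes were lower, near the 21.4% of all genes tested, and 14.4% were higher, below their 21.3%.

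**Figure D5:**
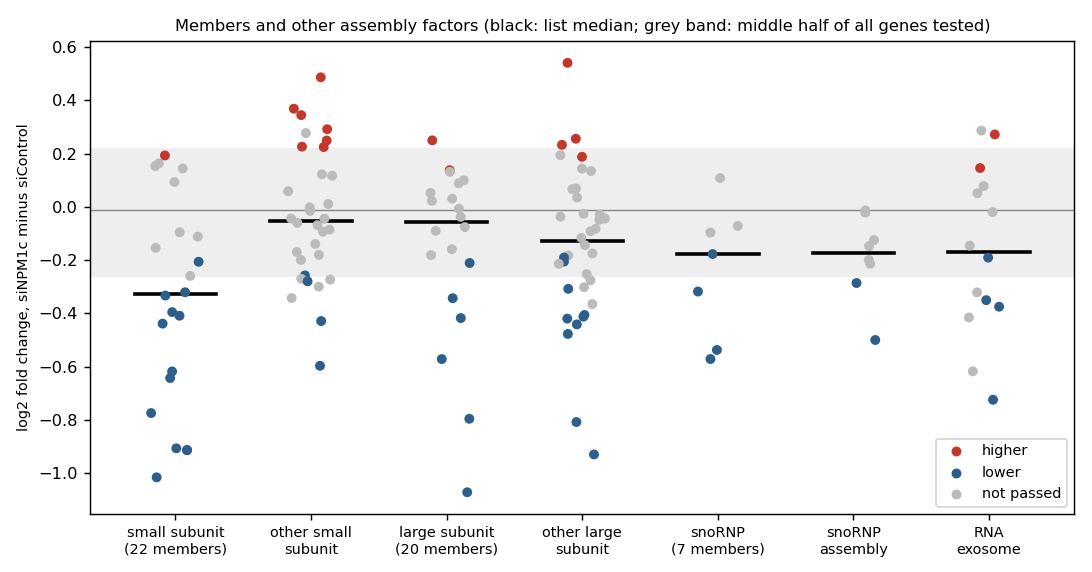
Log2 fold change (y axis, siNPM1c minus siControl) of single genes in 3 classes of the 52 factors and in 4 lists of other assembly genes (x axis), coloured by call, with the list median as a black line and the 25th to 75th percentile of all genes tested as a grey band. The median of the 22 small-subunit members, -0.33, lies below the band and that of the other small-subunit factors, -0.05, inside it; with library sizes alone no red point is higher.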

How the data were processed

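RNA of 6 libraries of OCI-AML3 cells, 3 siNPM1c and 3 siControl, was sequenced. The values are raw counts in whole numbers, 1 row per Entrez gene, as the authors deposited them, with no normalization. Software listed in the submitters' processing notes comprises STAR 2.7.5a, cutadapt 2.6, CASAVA 1.8 and DESeq2 1.34.0, with hg38 and mm10 as builds and no roles stated. Which counting tool, annotation and strand setting were used is not given in the sources used here. Columns were matched to samples by the names in the labels. Of 28307 genes, 28261 were given a symbol through NCBI RefSeq (GRCh38.p14).

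Counts were tested in R 4.3.3 with edgeR 4.0.16 (filterByExpr, TMM, glmQLFit with robust = TRUE, glmQLFTest, two-sided, Benjamini-Hochberg over all 12938 genes tested); direction is siNPM1c minus siControl. SE is the size of the log2 fold change over the root of the F statistic. CPM are scaled by TMM. GC content is the median over a gene's GENCODE 29 transcripts, known for 97.1% of tested genes and all 52 factors; length is the longest coding transcript. The GC correction subtracts each library's lowess trend (span 0.3) as an offset. The alternatives were other scalings and filters, DESeq2 1.42.0, limma-voom (limma 3.58.1), the GC correction, a fit without structural RNA genes, the replicate number as a block and leaving out each library.

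Each library counted as 1 replicate. Raw counts of library pairs within a group differed by more than sampling noise (chi-square per degree of freedom 1.46 to 2.36). That measure includes rRNA and differences in composition, so it does not say whether the libraries were separate cultures. The common coefficient of variation beyond counting noise in edgeR was 2.17%. The members, classes and lists were chosen with earlier results of these data known. Values in every library are given for the called members of smallest p (up to 4 per subunit class and direction, and 3 for snoRNP proteins), called general nucleolar factors and the most highly counted member of each class. Up to 3 genes per direction are named from the other lists, and UTP6, TBL3 and PWP2 beside the UTP-B factors. Of the 52 factors, 28 have exons that overlap another gene in GENCODE 29, 24 of them on the opposite strand. One marker of other cells is not reported here.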

Additional observations from a re-analysis of the deposited data

How the results depend on the processing

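With library sizes alone 9253 genes were lower and 507 higher, 50 members lower and 0 higher, 21 small-subunit and 20 large-subunit factors lower and 0 higher in each, and the medians became -0.64, -0.80 and -0.53 over all members, small-subunit and large-subunit factors. The 14 members that were above 0 with TMM and were then called lower were NOP14 -0.32, NOP53 -0.33, UTP18 -0.30, BOP1 -0.44, PES1 -0.44, RRP1 -0.38, RRP12 -0.28, RRS1 -0.34, EBNA1BP2 -0.22, NIP7 -0.37, NOC2L -0.42, NOC4L -0.33, NOLC1 -0.25 and TCOF1 -0.39. The GC correction gave -0.089 for BOP1, 2 small-subunit and 1 large-subunit factor higher and a small-subunit median of -0.27. With at least 5 CPM in 3 libraries, which leaves fewer members, 3 large-subunit factors were lower and the small-subunit median was -0.25. Large-subunit factors called higher were 1 with no filter and 1 with DESeq2. Small-subunit factors called higher were 2 with DESeq2 size factors and 2 with limma-voom. The log2 ratio of small over large, -0.13, became -0.21 without RRP12 and BOP1, an alternative chosen after seeing the data. The cause was not tested. DESeq2 called 17 members lower and 2 higher.

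Leaving out each library gave 17 to 23 members lower and 2 to 4 higher; small-subunit factors lower 10 to 13 and higher 1 to 2; large-subunit factors lower 4 to 6 and higher 1 to 2. The medians ran from -0.37 to -0.30 for small-subunit and -0.051 to -0.012 for large-subunit factors, their difference from -0.34 to -0.25 and the log2 ratio from -0.15 to -0.11. Gene by gene after TMM scaling, same-numbered libraries did not deviate together (r of 0.019, -0.0027 and -0.0041). Their rRNA shares, however, had the same order by replicate number: 69.43%, 71.05% and 70.23% in siNPM1c and 63.03%, 64.53% and 63.85% in siControl libraries. Whether the numbers pair the libraries is therefore not settled. With the replicate block 24 members were lower, 3 higher and no member's call changed. Depth limits the factors near 1 CPM, such as GAR1 and UTP15, whose SE was 0.29 and 0.25.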

Other observations

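Genes of small nucleolar RNAs lie within 8 of the 52 factors on the same strand in GENCODE 29, namely NOP56, NOP58, DKC1, GNL3, NOL11, NOP53, TSR1 and WDR43. Of these host genes 7 were lower in siNPM1c cells and 1, NOP53, was higher (lower under library sizes alone), where 46.2% of the 52 factors and 21.4% of all genes tested were lower and 21.3% of all genes higher. The calls of NOP56, GNL3, TSR1 and NOP53 were lost without certain single libraries and with DESeq2. The hosted snoRNAs themselves were hardly counted. Only SNORD23, inside NOP53, passed the filter, with 51 counts over the 3 siNPM1c libraries and 40 over the 3 siControl libraries, and did not pass the test (0.71 ± 0.34 log2, SE; adjusted p 0.0826, edgeR quasi-likelihood).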
